A study of Mus musculus with 9 samples.

Results

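The enzymes that build heme and take it apart were followed by RNA sequencing of mouse liver. The set was 9 of the 56748 genes listed in the count table, chosen by name: Alas1, Alad, Uros, Urod, Cpox, Ppox and Fech of synthesis, and Hmox1 and Blvrb of breakdown. All 9 had counts in each of the 3 groups, and 3 further enzymes of the same pathway (Alas2, Hmox2 and Blvra) were read beside them. The series asks how a sub-lethal oral course of indirubin, a poorly soluble red compound of the herbal powder indigo naturalis, changes the liver of mice with chronic colitis. It holds 9 liver libraries, 3 in each of the groups Control, DSS and Indirubin. All mice were C57BL/6J (C57BL/6 in the sample labels), aged 7 to 8 weeks when bought. DSS mice drank 1.8% dextran sulfate sodium, which injures the colon, in 3 cycles of 1 week with 1 week of recovery after each, and were given water by mouth. Indirubin mice went through the same DSS cycles and received indirubin at 1 g/kg each day. Control mice are labelled as given water, and since the series text opens by describing colitis in mice as a whole, whether they drank DSS is not certain from it. The colitis is a chemical model, and the labels do not say whether a library is 1 animal or a pool, so p-values measure the spread between libraries.

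Heme is made by a chain of enzymes that starts and ends in the mitochondrion, and in hepatocytes most of it goes into cytochromes P450. The first enzyme sets the rate: Alas1 in liver, repressed by heme itself, and Alas2 in red cell precursors. Heme oxygenase opens the ring to biliverdin, iron and carbon monoxide, chiefly in macrophages that clear red cells, and biliverdin reductases turn the pigment into bilirubin.

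The liver label held, since all 12 hepatocyte markers had counts in all 9 libraries. Libraries held 6514863 to 7944684 counts, of which 71.6% to 91.3% lay on mitochondrial genes, leaving 569044 to 2132208 nuclear counts. Indirubin replicates 2 and 3 and DSS replicate 3 had mitochondrial shares of 71.6%, 77.2% and 72.4%, against at least 85.8% elsewhere. Their nuclear counts were 1910420, 1771035 and 2132208, against at most 1089454 elsewhere. The part of depth and RNA composition in the values that follow was not tested. In marker transcripts a pair of libraries stood apart. Indirubin replicates 2 and 3 had counts for all 12 markers of pancreatic acinar cells, with summed levels of 750.1 and 983.1 normalised CPM (counts divided by library sizes scaled with the trimmed mean of M values), against 0 to 19.7 in the other 7 libraries. The same pair held the highest erythroid marker sums (719.7 and 738.4 against 173.7 to 328.9) and neutrophil marker sums (250.7 and 89.5 against 1.17 to 28.6). Values without the pair, which leave Indirubin replicate 1 alone, are given beside the results where its levels differed most, and rest on the assumption that a lone library varies like the others. No share of all genes is given for those fits, so their counts of higher and lower genes have no background beside them. In bulk tissue, fewer cells of a type and less RNA per cell cannot be told apart.

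The sequences before 3 of the gene starts are shown for the reader to set beside the values that follow. Alas1 and Alad were the pair of synthesis genes whose Indirubin libraries all lay below all DSS libraries, and Blvrb held the most matches to the motif searched. RefSeq promoters on build GRCm38.p6, which is not the GRCm39 build of the count table, were matched by symbol for 7 of the 9 genes, with 11 start sites. Hmox1 and Fech were not among the entries. Each line gives the 250 bases before the first listed start, 5′ to 3′ on the gene's strand, with capitals marking GCGTG or its reverse complement CACGC, the core letters to which the aryl hydrocarbon receptor, for which indirubin is a ligand, is known to bind.
Alas1 (chr9:106247955-106248204, minus strand): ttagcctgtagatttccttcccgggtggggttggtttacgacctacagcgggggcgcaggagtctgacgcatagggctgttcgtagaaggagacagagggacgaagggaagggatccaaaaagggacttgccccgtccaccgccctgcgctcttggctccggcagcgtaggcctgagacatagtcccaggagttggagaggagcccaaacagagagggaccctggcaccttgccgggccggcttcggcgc
Alad (chr4:62520064-62520313, minus strand): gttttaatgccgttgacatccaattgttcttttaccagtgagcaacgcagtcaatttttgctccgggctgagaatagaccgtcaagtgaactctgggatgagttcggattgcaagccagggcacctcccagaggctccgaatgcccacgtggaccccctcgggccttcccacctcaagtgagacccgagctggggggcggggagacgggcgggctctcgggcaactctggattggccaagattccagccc
Blvrb (chr7:27447728-27447977, plus strand): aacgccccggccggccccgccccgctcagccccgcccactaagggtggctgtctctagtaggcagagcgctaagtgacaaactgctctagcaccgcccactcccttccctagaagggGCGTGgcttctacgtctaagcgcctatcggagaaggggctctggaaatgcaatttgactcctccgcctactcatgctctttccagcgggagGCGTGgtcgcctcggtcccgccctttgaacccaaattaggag
In a window from 250 bases before to 50 after the start, GCGTG on either strand stood in 7 of the 11 promoters of these genes (both starts of Alas1 and of Alad, and 1 start each of Cpox, Ppox and Blvrb) and in 32.6% of 32544 promoters of all genes. The windows at both starts of Alas1 overlap and share a single match, as do those of Alad, so the 7 promoters stand for 5 genes and are not independent. In the first Alas1 and Alad promoters the match lay in the 50 bases after the start, outside the stretch shown. The letters TGACNNNGC, the core of the antioxidant response element, stood in 0 of the 11 and in 12.4% of all promoters. A match is a string of letters, and no binding was measured here.

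Hmox1, the inducible heme oxygenase, was the member that set Indirubin furthest from DSS in the upward direction. It lies at chromosome 8, 75820249 to 75827217, plus strand (ENSMUSG00000005413, build GRCm39 as for all genes that follow). Its normalised CPM was 13.4, 14.4 and 12.2 in Control replicates 1 to 3, 7.47, 6.91 and 9.23 in DSS, and 13.2, 33.9 and 34.4 in Indirubin. All 3 DSS libraries lay below all others, and the Indirubin group held 1 library at the Control level and a pair well above it. The group means were 13.4 ± 1.14 in Control, 7.87 ± 1.21 in DSS and 27.2 ± 12.1 in Indirubin (SD, n = 3 each). Indirubin exceeded DSS by 1.79 on the log2 scale (SE 0.46), with an unadjusted p of 0.00198 and an adjusted p of 0.433 by the quasi-likelihood test of edgeR, with the Benjamini-Hochberg method over 9117 genes, so the call was not made. Against Control the difference was 1.06 (SE 0.42, edgeR adjusted p = 0.286) with overlap. DSS lay below Control by a log2 fold change of -0.72 (SE 0.39, edgeR adjusted p = 0.764) without overlap, which ran from -0.82 to -0.02 over the alternatives. Without the acinar-rich pair the difference from DSS was 0.75 (SE 0.69, adjusted p = 1 in the edgeR fit, where the lone Indirubin library is assumed to vary like the others) and that from Control was -0.03. Without Indirubin replicate 1 it was 2.01 (edgeR adjusted p = 0.0232) from DSS and 1.24 (edgeR adjusted p = 0.0473) from Control. Over all alternatives the edgeR or DESeq2 adjusted p for Hmox1 between Indirubin and DSS ran from 0.0232 to 1.

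Alas1 encodes the liver's rate-setting enzyme, 5-aminolevulinate synthase, and showed its highest libraries in DSS (chromosome 9, 106110654 to 106125853, minus strand, ENSMUSG00000032786). Its normalised CPM was 16.5, 8.98 and 18.3 in Control, 18.02, 24.8 and 31.0 in DSS, and 2.94, 17.6 and 15.8 in Indirubin. Every Indirubin library was below every DSS library, though the closest pair, at 17.6 and 18.02, nearly touched, and 1 Indirubin library, with 16 counts, was far below the rest. The log2 fold change of Indirubin against DSS was -1.01 (SE 0.56, edgeR adjusted p = 0.758) and that of DSS against Control 0.77 (SE 0.39, edgeR adjusted p = 0.721), where the groups overlapped. Between Indirubin and Control the value was -0.22 (SE 0.57), -2.32 (SE 0.71, edgeR adjusted p = 0.26) with Indirubin replicate 1 alone and 0.08 without that library. With Indirubin replicate 1 as the sole Indirubin library, the difference from DSS was -3.06 (edgeR adjusted p = 0.505), and without that library it was -0.66.

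Alad, the zinc enzyme that joins a pair of aminolevulinate molecules into porphobilinogen, was the lowest member in Indirubin relative to DSS (chromosome 4, 62427406 to 62438155, minus strand, ENSMUSG00000028393). Its levels in normalised CPM were 16.7, 22.02 and 10.96 in Control, 17.5, 28.7 and 18.7 in DSS, and 11.9, 7.13 and 1.73 in Indirubin. No Indirubin library reached the lowest DSS library, and only the highest Indirubin library lay above the lowest Control library. The log2 fold change was -1.66 against DSS (SE 0.59, unadjusted p = 0.0158 and adjusted p = 0.511 by edgeR) and -1.26 against Control (SE 0.58, edgeR adjusted p = 0.366). DSS and Control overlapped for Alad, at a log2 fold change of 0.44 (SE 0.38). The lowest Alad values stood in the acinar-rich libraries. Without that pair the Indirubin difference was -0.85 (SE 0.64) from DSS and -0.48 (SE 0.55) from Control.

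**Figure D1:**
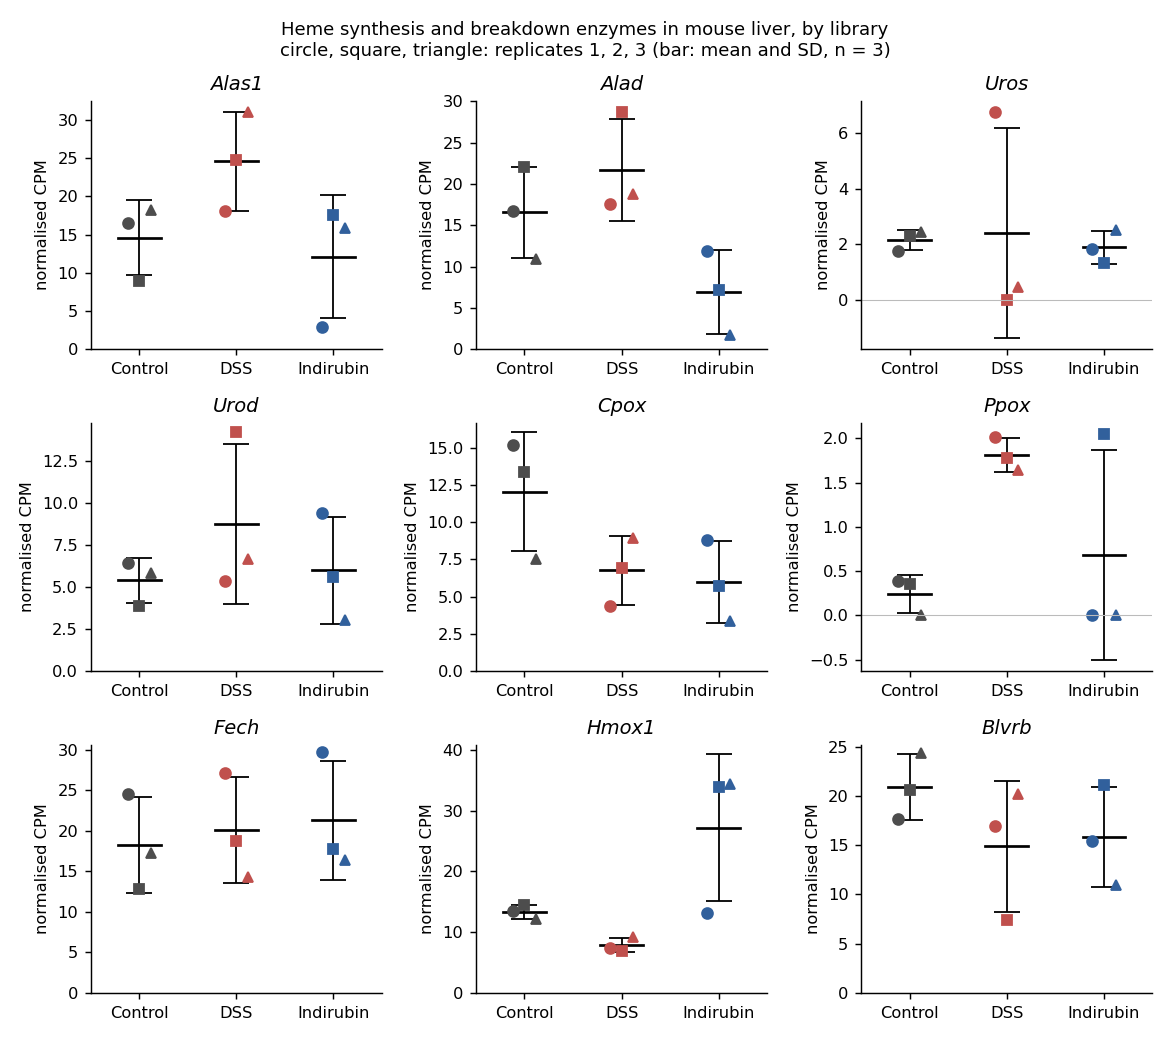
Normalised CPM (y axis, linear, one scale per panel) of the 9 heme enzymes in each liver library, grouped as Control, DSS and Indirubin (x axis), with the group mean and SD as bars (n = 3). Hmox1 is lowest in the 3 DSS libraries and highest in Indirubin replicates 2 and 3, while Alad lies lowest in the Indirubin group, and the large SD of Uros in DSS and Ppox in Indirubin comes from 1 library each.

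The middle steps of synthesis were thinly counted, and 2 of these genes turned on single libraries. Uros, which closes the ring into uroporphyrinogen III, had 9, 13 and 10 counts in Control, 57, 0 and 5 in DSS and 10, 16 and 29 in Indirubin. Most of the DSS level thus stood in replicate 1, and without it the log2 fold change of Indirubin against DSS went from -0.36 (SE 1.33) to 2.76. Uros shares its locus (chromosome 7, 133287972 to 133311801, minus strand, ENSMUSG00000030979) with Bccip on the other strand, which had 495 counts over the 9 libraries against 149 for Uros, and since the counting is not stated to use strand, their reads cannot be told apart. Ppox, the mitochondrial protoporphyrinogen oxidase, had 2, 2 and 0 counts in Control, 17, 10 and 18 in DSS and 0, 25 and 0 in Indirubin. All DSS libraries had more than all Control libraries, 45 counts against 4 in sum. Ppox passed the filter on low counts only through DSS, where it is high, so this direction is a description, and the edgeR adjusted p was 0.825. In Indirubin all Ppox counts came from replicate 2. Ppox (chromosome 1, 171103563 to 171108760, minus strand, ENSMUSG00000062729) overlaps B4galt3 on the other strand, which had 49 counts to its own 74.

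Urod, the cytosolic decarboxylase of uroporphyrinogen, had 33, 22 and 24 counts in Control, 45, 80 and 73 in DSS and 51, 68 and 35 in Indirubin (chromosome 4, 116847162 to 116851610, minus strand, ENSMUSG00000028684). After scaling, the groups overlapped in each comparison, with means of 5.38 ± 1.33, 8.73 ± 4.77 and 5.99 ± 3.19 normalised CPM (SD, n = 3 each). Cpox, the coproporphyrinogen oxidase, had 78, 76 and 31 counts in Control, 37, 39 and 98 in DSS and 48, 70 and 39 in Indirubin (chromosome 16, 58490655 to 58537999, plus strand, ENSMUSG00000022742). Its mean was 12.04 ± 3.99 normalised CPM in Control against 6.75 ± 2.29 in DSS and 5.97 ± 2.73 in Indirubin. Both colitis groups were below Control, by log2 fold changes of -0.80 (SE 0.46) and -1.01 (SE 0.48), with overlap and edgeR adjusted p of 0.817 and 0.378. Over the alternatives these values ran from -1.07 to -0.11 and from -1.51 to -0.15. The value for Indirubin was -0.46 (SE 0.61) without the acinar-rich pair.

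Fech and Blvrb, at the end of synthesis and the end of breakdown, were the members with the least difference between Indirubin and DSS. Fech, which inserts iron into protoporphyrin (chromosome 18, 64585985 to 64623322, minus strand, ENSMUSG00000024588), had 126, 73 and 71 counts in Control, 229, 106 and 157 in DSS and 162, 216 and 190 in Indirubin. Its log2 fold change between Indirubin and DSS was 0.08 (SE 0.42). Blvrb, a biliverdin reductase that is also a flavin reductase (chromosome 7, 27147403 to 27165569, plus strand, ENSMUSG00000040466), had 91, 117 and 100 counts in Control, 143, 42 and 221 in DSS and 84, 257 and 127 in Indirubin. For it the value was 0.09 (SE 0.46). Both values were smaller than their errors.

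Across the 9 members, no gene passed the adjusted threshold of 0.05 in any comparison. Between Indirubin and DSS all 9 were tested, 3 higher (56.8% of all genes had a positive value) and 6 lower, with a median log2 fold change of -0.36 beside 0.15 over all 9117 genes. The adjusted edgeR test called 0% of all genes there. At an unadjusted p under 0.05 it passed 406 higher and 294 lower genes (7.68%), and the DESeq2 Wald test called 80. Of the members, Hmox1 was higher and Alad lower at that unadjusted level, where 4.45% of all genes were higher and 3.22% lower. Hmox1 lay above without overlap, as 10.5% of all genes did, and Alas1 and Alad lay below, as 5.9% did, in all 3 of 9 members where the background was 16.4%. Between DSS and Control all 9 were tested, 6 higher (50.6% of all genes) and 3 lower, with a median of 0.23 beside 0.01 over 7482 genes. There 0.708% of genes passed the adjusted threshold (0.214% higher and 0.495% lower) and 7.52% the unadjusted one (3.48% higher and 4.05% lower), and no member passed either. Ppox, tested through its DSS counts, lay above without overlap, as 7.91% of all genes did, and Hmox1 below, as 8.21% did, which made 2 of 9 against a background of 16.1%. Between Indirubin and Control, 8 members were tested, Ppox having too few counts, with 3 higher (55.5% of all genes had a positive value) and 5 lower and a median of -0.19 beside 0.13 over 8059 genes. Hmox1 was the 1 member at an unadjusted p under 0.05, against 13.8% of all genes (7.45% higher and 6.38% lower). No member passed the adjusted threshold, against 0.236% of all genes (0.062% higher and 0.174% lower), and none was free of overlap, against 21.7% of all genes (12.7% higher and 9.07% lower). The comparisons share groups, so their values are not independent of each other.

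**Figure D2:**
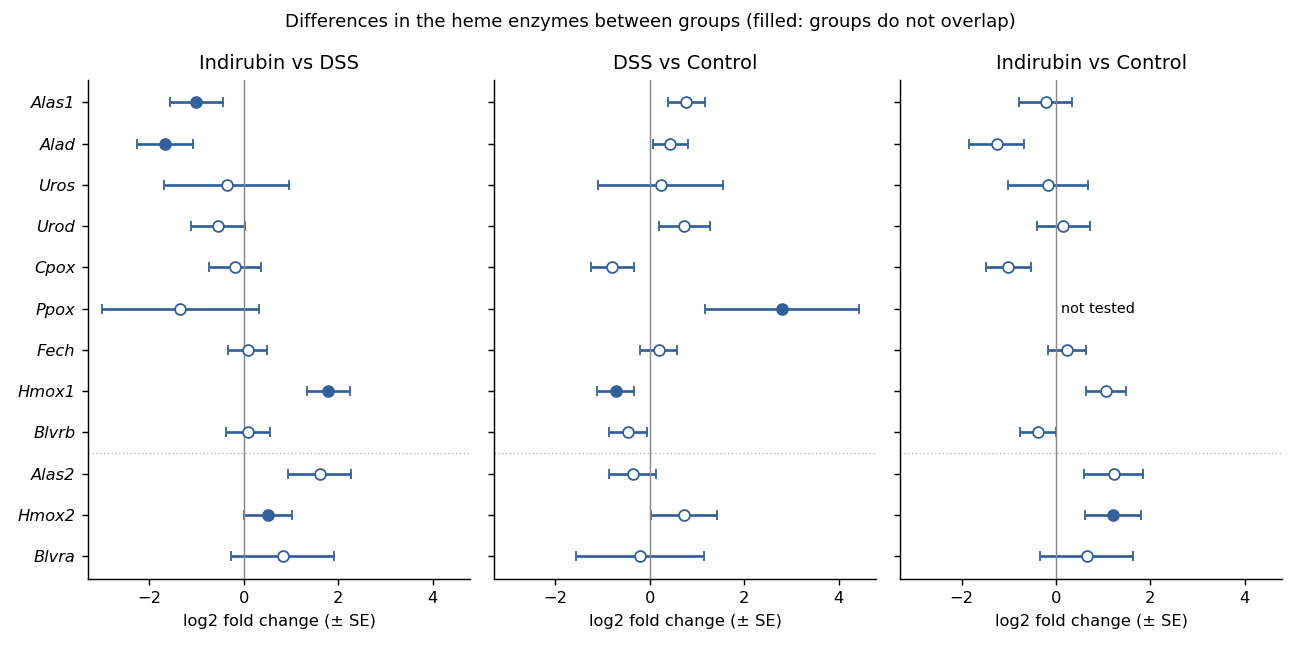
Log2 fold changes with their standard errors (x axis) of 12 heme enzymes (y axis, the 3 further enzymes below the dotted line) in the 3 comparisons, from edgeR's quasi-likelihood fit. Filled points mark genes whose groups do not overlap, and Hmox1 (1.79) and Alad (-1.66) stand furthest apart between Indirubin and DSS relative to their errors.

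Since Hmox1 degrades what Alas1 starts, the ratio of their counts was taken within each library, which removes library scaling. There were 0.813, 1.60 and 0.669 Hmox1 counts for each Alas1 count in Control, 0.416, 0.281 and 0.299 in DSS, and 4.39, 1.92 and 2.17 in Indirubin. The 3 groups did not overlap, with DSS lowest and Indirubin highest. On the log2 scale Indirubin exceeded DSS by 3.01, DSS was below Control by a difference of -1.55, and Indirubin exceeded Control by 1.47. Each gave an exact two-sided permutation p of 0.1, the smallest that 3 against 3 allows, so none could reach 0.05. Since the groups did not overlap, leaving out any single library could not turn a sign. The differences then ran from 2.64 to 3.24, -1.80 to -1.17 and 1.10 to 1.84. The Indirubin libraries arrived at their ratios from different sides. Replicate 1 had 72 Hmox1 and 16 Alas1 counts, whereas replicates 2 and 3 had 414 and 398 Hmox1 beside 215 and 183 Alas1 counts. With replicate 1 alone, the Indirubin difference was 3.75 from DSS and 2.20 from Control. The ratio was picked with both genes' values known, so it describes these libraries.

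**Figure D3:**
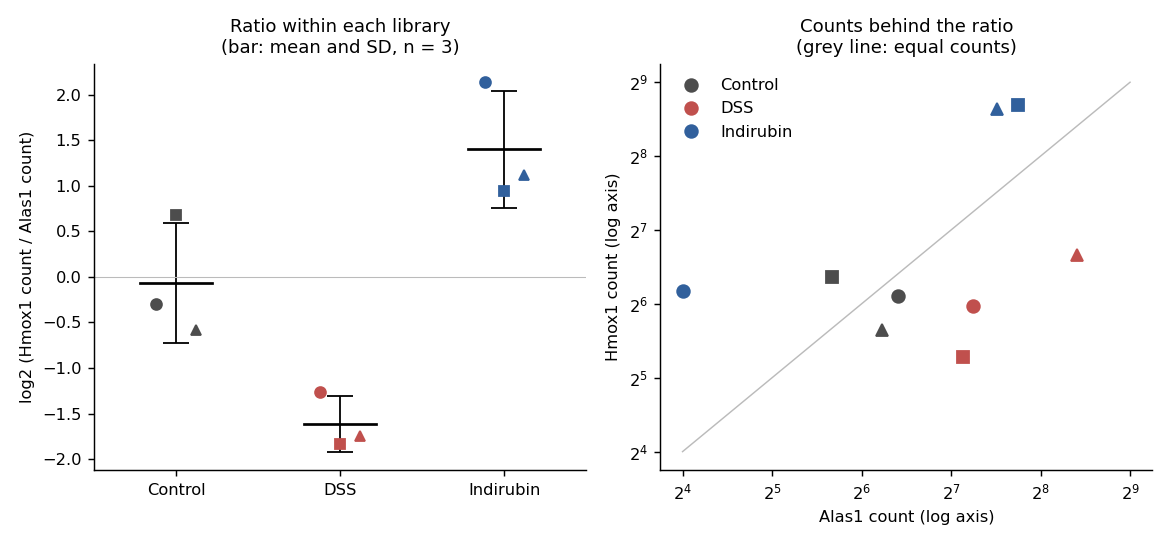
Left, log2 ratio of Hmox1 to Alas1 counts in each library by group, with mean and SD (n = 3). Right, the counts themselves on log axes with a line of equality. DSS libraries all lie below the line, Indirubin libraries all lie above it, and Indirubin replicate 1 sits apart at 16 Alas1 counts.

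The 3 further enzymes were all higher in Indirubin than in DSS, and none passed the adjusted test. Alas2, the red cell form of the first enzyme (chromosome X, 149330371 to 149353634, ENSMUSG00000025270), had 58, 45 and 33 counts in Control, 61, 53 and 43 in DSS and 21, 242 and 443 in Indirubin. The high values stood in the pair of libraries with the high erythroid sums, of which Alas2 is itself a part, and the log2 fold change against DSS was 1.61 (SE 0.67, edgeR adjusted p = 0.604) with overlap. Without that pair it was -0.81 (SE 0.93). Hmox2, the constitutive heme oxygenase (chromosome 16, 4544225 to 4584606, ENSMUSG00000004070), had 36, 94 and 64 counts in Indirubin against 46, 24 and 46 in DSS and 12, 28 and 6 in Control. After scaling it lay above both other groups without overlap, at 0.51 (SE 0.51) and 1.20 (SE 0.59), with edgeR adjusted p of 0.935 and 0.401. It overlaps Cdip1 on the other strand, which had 475 counts to its 356. Blvra, the main biliverdin reductase of adult liver, had no counts in 1 Control and 1 DSS library and a log2 fold change of 0.83 (SE 1.09).

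Per kilobase of gene model, the order of the 12 enzymes was led by different genes in the groups. Alad had the highest mean level in Control, at 8.86 ± 2.96 normalised CPM per kb, followed by Hmox1 (7.62 ± 0.65) and Blvrb (7.51 ± 1.20), and these 3 overlapped. In DSS, Alad stood at 11.6 ± 3.28 and its lowest library, at 9.38, was above the highest Blvrb library, at 7.26. In Indirubin, Hmox1 led at 15.5 ± 6.91, overlapped by Alas2 (8.60 ± 7.17), and Alad stood at 3.70 ± 2.73. Ppox had the lowest mean in every group, at 0.055 to 0.401, although in DSS and in Indirubin its range overlapped that of Uros. The Uros mean in DSS, 0.672 ± 1.06, rests on replicate 1. Alas1 stood at 2.36 ± 0.80, 3.99 ± 1.05 and 1.96 ± 1.30 in Control, DSS and Indirubin. The summed normalised CPM of the 9 members stayed between 88.2 and 112.6 over all libraries.

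**Figure D4:**
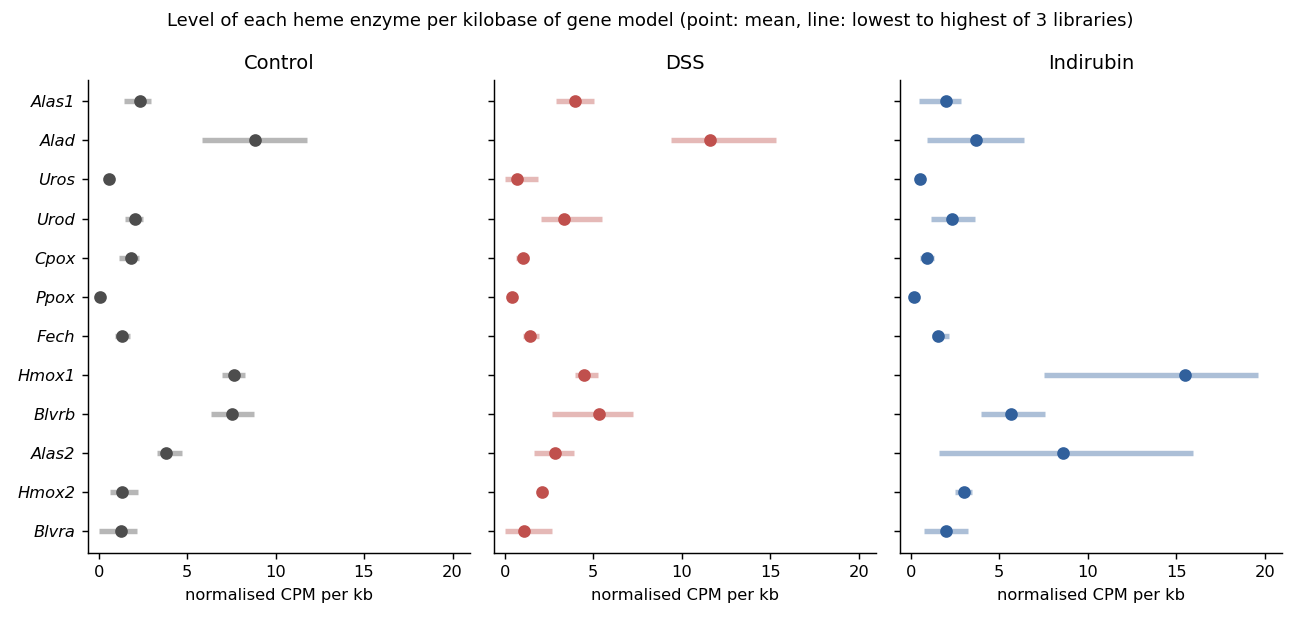
Mean level (points) and range over 3 libraries (lines) of each enzyme in normalised CPM per kb of gene model (x axis, linear), one panel per group. Alad leads in Control and DSS and Hmox1 in Indirubin, where the Hmox1 range runs from 7.55 to 19.6.

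Heme oxygenase 1 is abundant in Kupffer cells, so markers of other cells were read beside it. Of 16 macrophage and Kupffer markers tested between Indirubin and DSS, 11 were higher and 5 lower, 5 of them higher at an unadjusted p under 0.05 and none after adjustment, where 56.8% of all genes had a positive value and 4.45% were higher at that p. Without the acinar-rich pair 6 of the 17 then tested were higher and 11 lower, and the shares above are not those of that fit. The marker sum was 160.9 to 261.6 normalised CPM in Control, 221.7 to 247.4 in DSS and 288.8 to 370.6 in Indirubin, with no overlap between Indirubin and the rest. C1qb, a complement component made by Kupffer cells, and Vsig4, a complement receptor on them, were above DSS by 1.47 (SE 0.44) and 1.04 (SE 0.39), and by 1.13 and 1.25 without the acinar-rich pair, while Clec4f and Adgre1 had negative values of -0.28 and -0.42. Marco, a scavenger receptor, rose in DSS against Control by 2.43 (SE 0.50, edgeR adjusted p = 0.0443) and in Indirubin against Control by 3.82 (SE 0.68, edgeR adjusted p = 0.0468). Both calls were lost in most fits that left out 1 library. Over such fits the values ran from 2.08 to 2.66 and from 2.93 to 4.14. The first was lost without any 1 of the libraries but DSS replicate 1 (2.08 to 2.49 in those that lost it), and the second without any 1 but Indirubin replicate 1, standing at 1.66 without the acinar-rich pair. Itgam, Ly6c2 and Ccr2, markers of infiltrating monocytes, had at most 41 counts in any library. The part of these cells in the Hmox1 values was not tested.

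Of 8 erythroid markers tested between Indirubin and DSS, 6 were higher, 3 of them at an unadjusted p under 0.05, against the same shares of all genes (56.8% and 4.45%). Alas2 is 1 of these 3, and without the acinar-rich pair 0 of the 7 markers then tested were higher. Hbb-bs and Hbb-bt were above by 1.69 (SE 0.59) and 2.09 (SE 0.72), although reads of these near-identical globin genes may be split between them. Without the acinar-rich pair these values were -0.26 (SE 0.56) and -1.21 (SE 1.01). Gata1 and Rhag, which mark red cell precursors, had 4 counts each in Indirubin replicate 2 and 0 in the other 8 libraries. The part of red cells in the Alas2 values was not tested. Of the 10 endothelial and stellate markers, 9 were higher in Indirubin than in DSS, with Col1a1, a fibrillar collagen, at 1.74 (SE 0.71, and 1.06 with SE 1.52 without the acinar-rich pair). DSS lay below Control for 7 of 9 of them, 2 of these at an unadjusted p under 0.05 against 4.05% of all genes, and the Col1a1 means were 5.36 in Control, 1.86 in DSS and 6.17 in Indirubin normalised CPM. Between Indirubin and Control 6 were higher and 3 lower, and the 3 lower, Reln (-1.21), Col3a1 (-0.87) and Lrat (-1.36), were at an unadjusted p under 0.05, against 6.38% of all genes. S100a8 and S100a9, neutrophil calprotectin subunits, had 1 to 12 counts in Control and 45 to 1449 in Indirubin, so that they passed the filter on low counts through the group where they are high. Their fitted values against Control were 6.27 (SE 0.95) and 5.12 (SE 0.81), both at an edgeR adjusted p of 0.0288, and their direction is no independent result. Neither passed the adjusted threshold without Indirubin replicate 2 (5.03 and 4.18) or without any 1 Control library, nor did S100a9 without Indirubin replicate 3 (5.29), and without the acinar-rich pair the values were 3.50 and 3.22. Against DSS, S100a8 stood at 2.96 (SE 0.76), and at 0.23 (SE 0.79) without the pair. S100a9 stood at 3.09 (SE 0.71), and at 1.26 (SE 0.78) without it. Of 10 neutrophil markers 3 were tested in each Indirubin comparison and 2 between DSS and Control, and of 12 acinar markers 3 against DSS, 4 between Indirubin and Control and 1 between DSS and Control. Most of these, too, passed the filter through the group where they are high, so their directions are no result. Ltf, a neutrophil granule protein, had 14, 23 and 24 counts in Indirubin and 0 in the other 6 libraries, and Pnliprp1, a pancreatic lipase-related protein, had 11, 322 and 395 in Indirubin and 0 in DSS. Of 12 hepatocyte markers, 4 were higher and 8 lower than in DSS, and their sum was 8722 to 10910 in Indirubin, 10230 to 19900 in DSS and 11770 to 19300 in Control. Serpina1c, a plasma protease inhibitor, and Ttr, the carrier transthyretin, lay below DSS without overlap at -1.34 (SE 0.47, edgeR adjusted p = 0.5) and -1.32 (SE 0.53, edgeR adjusted p = 0.582), and Apoa1, the main protein of high-density lipoprotein, had -1.03 (SE 0.53). They were the 3 lower markers with the smallest p, and Pck1, Cps1 and Tat, enzymes of glucose, urea and tyrosine metabolism, the 3 higher ones, at 0.91, 0.73 and 0.92. Without the acinar-rich pair Serpina1c, Ttr and Apoa1 stood at -0.84, -0.55 and -1.07, and Pck1, Cps1 and Tat at -0.22, 0.05 and -0.92, with 2 of the 12 markers higher and 10 lower. The lower values lay beside those of Alad and Slco1b2, and the part of hepatocyte content in these was not tested.

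**Figure D5:**
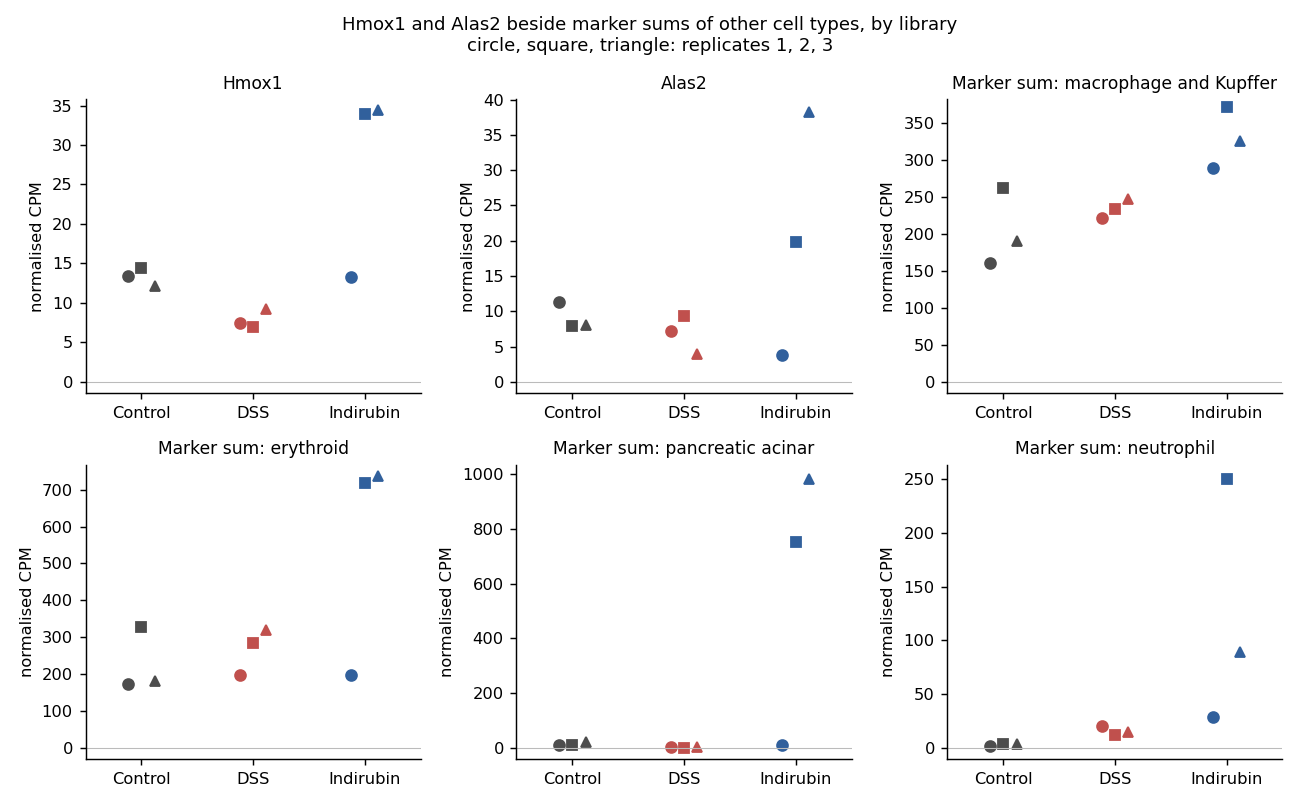
Normalised CPM (y axis, linear) of Hmox1 and Alas2 and of the summed markers of macrophages, red cells, pancreatic acinar cells and neutrophils in each library, by group (x axis). Indirubin replicates 2 and 3 are the highest libraries in all 6 panels, while replicate 1 lies within or near the other groups for Hmox1, Alas2, red cells and acinar cells and just above them for macrophages and neutrophils.

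Carriers of heme and its precursors held no gene past the adjusted threshold in any comparison. Of 13 listed, 8 were tested against DSS, 1 higher and 7 lower, at a median of -0.73, and none passed the unadjusted one either. Pgrmc1, a heme-binding membrane protein, had 655, 988 and 393 counts in Control, 668, 446 and 1340 in DSS and 427, 423 and 409 in Indirubin. After scaling it lay below both groups without overlap, at -0.92 (SE 0.44) and -1.40 (SE 0.43), with edgeR adjusted p of 0.684 and 0.174, and at -0.25 and -0.76 without the acinar-rich pair. Tspo, an outer mitochondrial membrane protein that binds porphyrins, was the 1 carrier of those tested above DSS, by 0.55 (SE 0.44), and stood at -0.31 (SE 0.70) without the pair. Between DSS and Control, 5 carriers were higher and 3 lower, and Slc25a39, a mitochondrial carrier, lay above without overlap at 0.49 (SE 0.30). Between Indirubin and Control, 4 were higher and 4 lower, with Tmem14c, a porphyrin carrier of the inner membrane, below at -1.09 (SE 0.43).

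Regulators of Alas1 and Hmox1 held 15 genes, and none passed the adjusted threshold in any comparison. Against DSS, 13 of 14 tested were higher in Indirubin, at a median of 0.47, where 56.8% of all genes were higher and their median was 0.15. That count rested on the acinar-rich pair, without which 8 were higher and 6 lower. The largest value was that of Mafk, a small partner of Bach1 and Nrf2, at 1.75 (SE 0.82), or -0.88 (SE 2.06) without the acinar-rich pair. Bach1, the heme-sensing repressor of Hmox1, and Nfe2l2, its activator, differed by 0.13 (SE 0.75) and 0.64 (SE 0.59), and by -0.38 (SE 1.29) and -0.40 (SE 1.06) without that pair. Clpx, a mitochondrial unfoldase that acts on aminolevulinate synthase, was the 1 lower, at -0.19 (SE 0.48), and stood at 0.54 (SE 0.60) without the pair. Nr1d1, a heme-binding nuclear receptor of the clock, had 5, 0 and 4 counts in Control, 31, 13 and 23 in DSS and 10, 17 and 114 in Indirubin. Both colitis groups lay above Control without overlap, as 7.91% of all genes did for DSS and 12.7% for Indirubin. The edgeR adjusted p against Control was 0.898 for DSS and 0.309 for Indirubin. Nr1d1 passed the filter on low counts through these groups, where it is high, so its direction is no independent result. In DSS against Control, 4 regulators were higher and 8 lower, and in Indirubin against Control 8 were higher and 4 lower. Of 14 targets of Nrf2 tested, 7 were higher and 7 lower than in DSS. Gsr, glutathione reductase, was above at 1.37 (SE 0.45) and Prdx1, a peroxiredoxin, below at -0.90 (SE 0.39), both without overlap and with edgeR adjusted p of 0.478 and 0.628. The counts were 9 and 5 for DSS against Control and 7 and 7 for Indirubin against Control.

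Scavengers of heme and hemoglobin in plasma held the pathway's calls. Of the 6 genes, Hpx, which binds free heme, and Hp, which binds free hemoglobin, rose in DSS against Control by 2.65 (SE 0.51) and 2.60 (SE 0.50), both at an edgeR adjusted p of 0.0321. Both calls were lost when any 1 library other than DSS replicate 1 was left out, with values of 2.04 to 2.84 and 2.15 to 2.76 in those fits, and in a fit of all 9 libraries. Hpx had 3100, 4552 and 1936 counts in Control, 11009, 20217 and 73932 in DSS and 3539, 49762 and 63413 in Indirubin. Replicate 1 of Indirubin thus stood at the Control level, and the values against DSS were -0.19 (SE 0.79) for Hpx and -0.25 (SE 0.81) for Hp, and -2.58 (SE 1.04) and -2.88 (SE 1.03) without the acinar-rich pair. Cd163, the macrophage receptor for haptoglobin bound to hemoglobin, had 0, 12 and 31 counts in DSS and 8, 159 and 157 in Indirubin, a log2 fold change of 2.498 (SE 1.03, edgeR adjusted p = 0.604) with overlap, and -0.17 (SE 2.36) without the acinar-rich pair. Ambp, whose product binds heme, was below DSS by a log2 fold change of -1.43 (SE 0.59), also with overlap.

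Genes that clear bilirubin held no call in any comparison. Of 8 tested against DSS, 2 were higher and 6 lower in Indirubin, at a median of -0.58. Slco1b2, a hepatocyte uptake carrier of bilirubin, had 221, 324 and 131 counts in Control, 345, 306 and 784 in DSS and 195, 125 and 99 in Indirubin. It was below DSS without overlap, at -1.62 (SE 0.55, edgeR adjusted p = 0.496), and at -0.63 (SE 0.57) without the acinar-rich pair. Ugt1a1, which conjugates bilirubin, was below Control without overlap at -1.22 (SE 0.51, edgeR adjusted p = 0.309). Slco1a1, another organic anion carrier, had 153, 148 and 84 counts in Control, 26, 48 and 91 in DSS and 98, 14 and 0 in Indirubin. It lay below Control without overlap in both colitis groups, at -1.91 (SE 0.43, edgeR adjusted p = 0.0775) and -2.06 (SE 1.10, edgeR adjusted p = 0.446), the latter standing at -0.51 (SE 0.49) without the acinar-rich pair. Without that pair 6 of the 9 bilirubin genes then tested were higher than in DSS. Against Control, DSS had 3 higher and 5 lower and Indirubin 2 higher and 5 lower of those tested.

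Hemoproteins of the liver and their partners held no call either. Of 15 tested against DSS, 6 were higher and 9 lower in Indirubin, at a median of -0.24, and the counts were 6 and 9 of 15 for DSS against Control and 6 and 8 of 14 for Indirubin against Control. Tdo2, the heme-dependent dioxygenase of tryptophan, had 252, 296 and 263 counts in Control, 240, 135 and 412 in DSS and 281, 1392 and 1212 in Indirubin. It was above DSS without overlap at 1.58 (SE 0.43, edgeR adjusted p = 0.433), or 0.78 (SE 0.53) without the acinar-rich pair, and showed the same order of groups as Hmox1, lowest in all DSS libraries. Cyp1a2, a cytochrome P450 whose gene the aryl hydrocarbon receptor controls, had 159, 211 and 73 counts in Control, 80, 118 and 386 in DSS and 471, 627 and 763 in Indirubin. It lay above DSS by 1.63 (SE 0.49) and above Control by 1.27 (SE 0.39), both without overlap, with edgeR adjusted p of 0.436 and 0.174, and without the acinar-rich pair the values were 1.98 and 1.58. Cyp3a11 and Cyp2c29, P450s of drug oxidation, had values of -1.31 (SE 0.71) and -1.21 (SE 0.61) against DSS, with overlap, and -0.06 and -0.12 without that pair.

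The genes whose levels ran most like Alas1 and Hmox1 over the 9 libraries were ranked by Pearson's r on log2 CPM among 3074 genes that reached 10 counts in all libraries. For Hmox1 they were Sparc (r = 0.976), Tdo2 (0.966), Ppp2cb (0.960), Gm5096 (0.932) and Pik3ap1 (0.930). For Alas1 they were Adrm1 (0.884), Spcs2 (0.874), Krtcap2 (0.871), Eif3b (0.858) and Marchf5 (0.846). Within the members, Alad and Hmox1 gave r = -0.85, and Alas1 and Hmox1 -0.18. These points share library depth and the acinar-rich pair, and the values are descriptions over 9 libraries.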

How the data were processed

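Libraries were made from 400 ng of liver RNA and read by DNBSEQ. Reads were placed on GRCm39, per the submitters' processing notes. The aligner and counter are not given in the sources used here. The authors deposited raw read counts per gene, which were tested, and FPKM values, which they had scaled by length and by a library size other than the count total, and which were not used. The deposited fold changes and p-values of the authors' own comparisons, and lists of genes drawn from them, were not used either.

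Counts were fitted with edgeR 4.0.16 (R 4.3.3; TMM, filterByExpr with its minimum count of 10, glmQLFit and glmQLFTest) for each pair of groups, with Benjamini-Hochberg adjustment over all genes tested. Normalised CPM came from TMM over all 9 libraries, and log2 CPM used a prior count of 2. Correlations between members instead used the log2 of normalised CPM plus 2. The ratio of Hmox1 to Alas1 used a pseudocount of 0.5 and an exact permutation test. DESeq2 1.42.0, other scalings and filters, a replicate block and leaving out libraries were alternatives. The fits were tested on simulated data. Plots used matplotlib. No 2 libraries agreed within sampling noise (36 pairs). The summed marker levels, motif matches and correlations are descriptions.

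The genes and all lists (carriers, regulators, scavengers, bilirubin handling, hemoproteins, Nrf2 targets and markers of erythroid, macrophage, hepatocyte, acinar, neutrophil, endothelial and stellate cells) were chosen with earlier results of these data known, so they carry no test as a list. A result on 1 gene of the pathway is not reported here. Named were all members, the 3 further enzymes, for each list up to 3 genes with the smallest unadjusted p each way in a comparison, and the 5 genes most like Alas1 and Hmox1. Genes named outside that rule (Nfe2l2, Gata1, Rhag, Itgam, Ly6c2 and Ccr2) were chosen after their values were seen.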

Additional observations from a re-analysis of the deposited data

How the results depend on the processing

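Depth limited the middle enzymes most, with Ppox at 0 to 25 and Uros at 0 to 57 counts a library. Over the values of single members under the alternatives, 13, 5 and 9 turned sign and 120, 118 and 110 kept it between Indirubin and DSS, DSS and Control, and Indirubin and Control, and 2, 0 and 1 passed the adjusted threshold. These were Hmox1 without Indirubin replicate 1 in both Indirubin comparisons, and Hmox1 against DSS by the DESeq2 Wald test (1.79, adjusted p = 0.0494).

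The number of genes called between Indirubin and DSS, 0 as reported, was 2 with library size alone, 80 with the DESeq2 Wald test, 156 with no filter, 2 with at least 10 counts in every library, 4 with all 9 libraries in one fit and 0 to 134 with a library left out, the highest without Indirubin replicate 1. Between DSS and Control, 53 became 19, 143, 125, 84 and 11 under the same settings and 12 to 64 with a library left out. Between Indirubin and Control, 19 became 266, 316, 379, 72 and 56, and 1 to 465, again highest without Indirubin replicate 1.

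Library size alone moved the median of all genes to 0.43, 0.70 and 1.11 in the 3 comparisons in the order above, and the members' median to -0.074, 0.86 and 0.88. It gave Blvrb 0.33 against -0.46 between DSS and Control, and Alas1 0.98, Uros 0.79 and Blvrb 0.66 between Indirubin and Control. Requiring at least 10 counts moved the members' median between Indirubin and DSS to -0.10. Without a filter Fech and Blvrb were at -0.034 and -0.027 between Indirubin and DSS.

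With a library left out, the members' median ran from -0.71 to -0.18, from -0.12 to 0.55 and from -0.36 to -0.078. Signs turned for Fech (-0.34 to 0.25), Blvrb (-0.31 to 0.36), Cpox (-0.67 to 0.10) and Uros (-0.99 to 2.76) between Indirubin and DSS, for Uros (-3.04 to 0.73) and Fech (-0.12 to 0.42) between DSS and Control, and for Alas1 (-0.58 to 0.082), Uros (-0.44 to 0.038), Urod (-0.43 to 0.48) and Fech (-0.21 to 0.49) between Indirubin and Control. Without the acinar-rich pair, an alternative chosen after seeing the data, the members' median was 0.047 against DSS and -0.35 against Control, Urod and Cpox stood at 0.12 and 0.38 against DSS, and Hmox1 at -0.027 against Control. The causes were not tested.

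Same-numbered libraries did not deviate together over all genes (r from -0.02 to 0.02). Differently numbered libraries were not compared, so a pairing by number was seen in no value but was not tested. The replicate block called 3, 30 and 49 genes in the 3 comparisons, lost the calls of Hpx, Hp and Marco between DSS and Control (adjusted p of 0.167, 0.163 and 0.123 by edgeR), gave Uros 1.54 and -1.70 in the first and second, and moved the members' median between Indirubin and Control to -0.31.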
